A study of Mus musculus with 12 samples.

Results

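The chemokine genes *Ccl9*, *Ccl2*, *Ccl5*, *Ccl7*, *Ccl20*, *Cxcl1*, *Cxcl2*, *Cxcl5*, *Cxcl16* and *Cx3cl1* were followed in Myc-CaP cells given oxaliplatin (Oxali), interferon γ (IFNγ) or both. They are 10 of the 55216 genes of the count table and were listed by symbol as chemokines that attract myeloid cells and are not ligands of CXCR3. The set was chosen by symbol and built around *Ccl9*, which was selected on its counts in Oxali and in the untreated control (Ctrl), where its rise was the largest of the set; these values are therefore a description and not a test. Myc-CaP is an established line from a prostate tumor of an FVB mouse with a *Myc* transgene under a probasin promoter, which is active in prostate epithelium, and it stands here as 1 line grown in culture.

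RNA was taken after 48 h from 12 libraries, 2 in each of 6 groups. Ctrl cells had no agent, IFN200 and IFN2000 cells had IFNγ at the labelled 200 or 2000 pg, Oxali cells had 2 μM of the drug, and Combo200 and Combo2000 cells had the drug with the lower or the higher IFNγ dose. The labels give no volume for the IFNγ amounts, which the study states per milliliter. Oxali is a platinum compound that crosslinks DNA, and IFNγ is the cytokine that activated T cells and NK cells release. The groups follow the sample titles. A separate agent label contradicts the titles of the 6 single-treatment libraries: it reads Oxali for the pair titled IFN200, the lower IFNγ dose for the pair titled IFN2000, and the higher IFNγ dose for the pair titled Oxali. Were the agent labels right, the 3 single treatments would trade names below, while Ctrl and the combinations would keep theirs. Against Ctrl, 15 of 13177 genes were called in the pair titled IFN200 and 8911 in the pair titled Oxali, values that were not used to assign groups. Nothing says that the 2 libraries of a group came from separate cultures, so p-values measure the spread between these libraries, which may be technical.

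Chemokines are small secreted proteins that bind receptors on leukocytes and draw them along a gradient. CCL9 acts through CCR1 on immature myeloid cells and osteoclast precursors. CCL2 and CCL7 draw monocytes through CCR2, and CCL5 draws monocytes and T cells, in part through CCR1. CXCL1, CXCL2 and CXCL5 draw neutrophils through CXCR2. CCL20 draws CCR6 positive dendritic cells and lymphocytes. CXCL16 and CX3CL1 (fractalkine) are made as membrane proteins that proteases can release, and they bind CXCR6 and CX3CR1. Tumor cells of many kinds make such chemokines, and what is measured here is their mRNA and not the secreted protein.

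Promoter sequence was at hand for 5 of the 10 genes. The windows below run from 250 bases before the RefSeq start site to 50 after it, 5′ to 3′ on the strand of the gene, in build GRCm38.p6, which is C57BL/6J and not FVB sequence. *Ccl9* and *Cx3cl1* are shown because they rose with Oxali, and *Cxcl1* and *Cxcl2* because they are neighbors with related windows. Capitals mark every match, on either strand, to GGGNNNNNCC, a loose form of the site that NF-κB binds, with overlapping matches merged.
Ccl9, chr11:83578587-83578886, minus strand: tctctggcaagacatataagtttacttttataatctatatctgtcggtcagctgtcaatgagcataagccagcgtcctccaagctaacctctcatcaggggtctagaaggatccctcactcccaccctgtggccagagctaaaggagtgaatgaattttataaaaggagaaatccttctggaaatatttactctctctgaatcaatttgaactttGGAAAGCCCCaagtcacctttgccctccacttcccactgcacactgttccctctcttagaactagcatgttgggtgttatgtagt
Cx3cl1, chr8:94771930-94772229, plus strand: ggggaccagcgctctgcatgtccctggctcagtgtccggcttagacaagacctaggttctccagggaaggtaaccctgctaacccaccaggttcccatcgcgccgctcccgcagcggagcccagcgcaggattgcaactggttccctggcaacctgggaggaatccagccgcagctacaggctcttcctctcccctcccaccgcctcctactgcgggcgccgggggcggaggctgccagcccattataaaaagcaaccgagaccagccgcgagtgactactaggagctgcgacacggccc
Cxcl1, chr5:90890995-90891294, plus strand: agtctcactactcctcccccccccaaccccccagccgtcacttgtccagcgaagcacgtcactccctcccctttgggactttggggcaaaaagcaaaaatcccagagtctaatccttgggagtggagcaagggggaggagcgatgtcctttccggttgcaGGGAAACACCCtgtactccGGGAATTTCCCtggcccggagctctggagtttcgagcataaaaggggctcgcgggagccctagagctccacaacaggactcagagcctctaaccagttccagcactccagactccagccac
Cxcl2, chr5:90903649-90903948, plus strand: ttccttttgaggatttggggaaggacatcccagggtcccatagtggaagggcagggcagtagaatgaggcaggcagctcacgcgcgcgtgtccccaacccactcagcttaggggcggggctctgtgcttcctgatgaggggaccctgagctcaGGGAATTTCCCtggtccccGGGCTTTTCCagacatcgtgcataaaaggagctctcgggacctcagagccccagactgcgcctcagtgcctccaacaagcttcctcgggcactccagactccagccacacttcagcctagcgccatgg

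The *Ccl9* window held 1 match to GGGNNNNNCC, at its bases 216 to 225, and the *Cx3cl1* window held none. The *Cxcl1* and *Cxcl2* windows both held GGGAATTTCC, which 29 of 32851 RefSeq windows contain on either strand (0.0883%), whereas GGGNNNNNCC is found in 50.79% of them. The *Cxcl1* and *Cxcl2* windows also shared a run of 20 bases, GCACTCCAGACTCCAGCCAC. *Ccl20*, on chr1:83116516-83116815, had matches to GGGNNNNNCC as well. TGANTCA, a loose form of the site that AP-1 binds, occurred in the *Ccl9* window alone of the 5 and in 7.81% of all windows. TTCNNNGAA (8.3% of all windows), the letters of the STAT site that serves IFNγ, and GAAANNGAAA (3.44%), those of the IRF site, were in none of the 5. These are matches of letters within the windows and say nothing of whether a factor was bound.

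Of the 10 genes, 5 passed the filter on low counts and could be tested (*Ccl9*, *Cx3cl1*, *Cxcl5*, *Cxcl1* and *Ccl5*), and *Ccl5* did so only through the combinations. *Ccl7* and *Ccl20* had no read in any of the 12 libraries, and *Ccl2* had 3 in all. Library totals were 18749975 to 25931516 counts, at which a count of 0 allows up to 0.111 to 0.167 CPM (counts scaled to the library total), for counting error only. *Cxcl2* had 60 counts over the 12 libraries and *Cxcl16* 50. Library totals were scaled by TMM, so that libraries can be compared for 1 gene, and genes are compared with each other only after division by exon length. In bulk RNA, fewer cells of a kind and less RNA per cell cannot be told apart.

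The labelled line was checked against its markers. *Myc* (2268 to 3835 counts) and *Krt8* (353 to 628 counts) were present in every library, whereas *Epcam* was at 0 in all 12, and *Krt18* and *Cdh1* did not exceed 5 and 6 counts. Of the myeloid markers, *Adgre1*, *Itgam* and *S100a9* were at 0 in all 12, and the list of 9 summed to 12.5 to 18.4 CPM without Oxali and 16.4 to 19.1 CPM with it, of which *Cd14* was the largest part. Of the libraries, 2 stood apart. Replicate 2 of IFN2000 had 8 of 9 T cell markers above 3 counts, summing to 17.0 CPM against 0.354 to 2.28 CPM in the other 11, and replicate 1 of IFN200 had 6 of 7 heart muscle markers above 3 counts.

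*Ccl9* was scarce without the drug and much higher with it. The Ctrl libraries had 24 and 34 counts, those with IFNγ alone 27 and 38 at the lower dose and 50 and 38 at the higher. Oxali alone gave 1097 and 1126 counts, and the combinations gave 1004 and 1107 with the lower IFNγ dose and 996 and 876 with the higher. All 6 libraries with the drug lay far above all 6 without it. Mean levels were 1.53 ± 0.274 CPM in Ctrl (SD, n = 2, as for every mean below), 1.43 ± 0.359 CPM in IFN200 and 1.92 ± 0.315 CPM in IFN2000. With the drug they were 52.1 ± 2.26 CPM (Oxali), 43.3 ± 0.712 CPM (Combo200) and 37.3 ± 0.609 CPM (Combo2000). Ctrl overlapped with both IFNγ groups, whereas Oxali, Combo200 and Combo2000 followed each other downward with no overlap.

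The difference between Oxali and Ctrl, by which *Ccl9* was chosen, was 5.08 on the log2 scale (33.8-fold) and lay at percentile 99.7 of the 13177 genes tested, a comparison in which 67.6% of all genes were called. Leaving out a Ctrl library gave 4.91 (replicate 1) or 5.28 (replicate 2). Whether the drug has this effect when IFNγ is present was asked in contrasts between groups other than Oxali and Ctrl. The fit used all 12 libraries, so those of Oxali and Ctrl still entered its filter, scaling and spread. The genes were chosen with earlier results of these data known, so these tests are not independent of that choice. Oxali added to the lower IFNγ dose raised *Ccl9* by 4.92 log2 units (30.3-fold, SE 0.11, adjusted p = 1.02e-17 in edgeR's quasi-likelihood test), and Oxali added to the higher dose raised it by 4.27 (19.3-fold, SE 0.11, adjusted p = 2.98e-17). Over all alternatives tried, these changes ran from 4.67 to 5.19 and from 4.10 to 4.44, with either library that stands apart left out as well. *Csf1r*, a myeloid marker, was at 0 in the 6 libraries without Oxali and at 8 to 19 counts with it, and *Lyz2* did not exceed 1 count without it and had 3 to 11 with it, while *Adgre1*, *Itgam* and *S100a9* stayed at 0. Among markers of other cells, *Pdgfra* (fibroblasts) had 221 to 371 counts without Oxali and 483 to 632 with it, and *Tnnt2* (heart muscle) had 15 to 47 and 68 to 125, with the fibroblast marker *Lum* at 0 in all 12. The part of these markers in the *Ccl9* values was not tested.

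Differences of *Ccl9* with IFNγ were small beside those with the drug. Against Oxali, *Ccl9* differed by -0.27 log2 units in Combo200 and by -0.48 in Combo2000, values that are not tested because the Oxali libraries chose the gene. Between Combo2000 and Combo200 the difference was -0.21 (SE 0.060, adjusted p = 0.112). That difference passed the threshold in 1 of 19 alternatives, the fit to only those 2 groups (adjusted p = 0.0397). Without the drug, IFN2000 lay 0.43 above IFN200 (SE 0.22, adjusted p = 0.177), with 0.21 to 0.72 when 1 library was left out. The drug effect with IFNγ minus that without it was -0.16 at 200 pg (0.11 without IFN200 replicate 2) and -0.80 at 2000 pg (-0.63 without IFN2000 replicate 2), again as description.

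**Figure D1:**
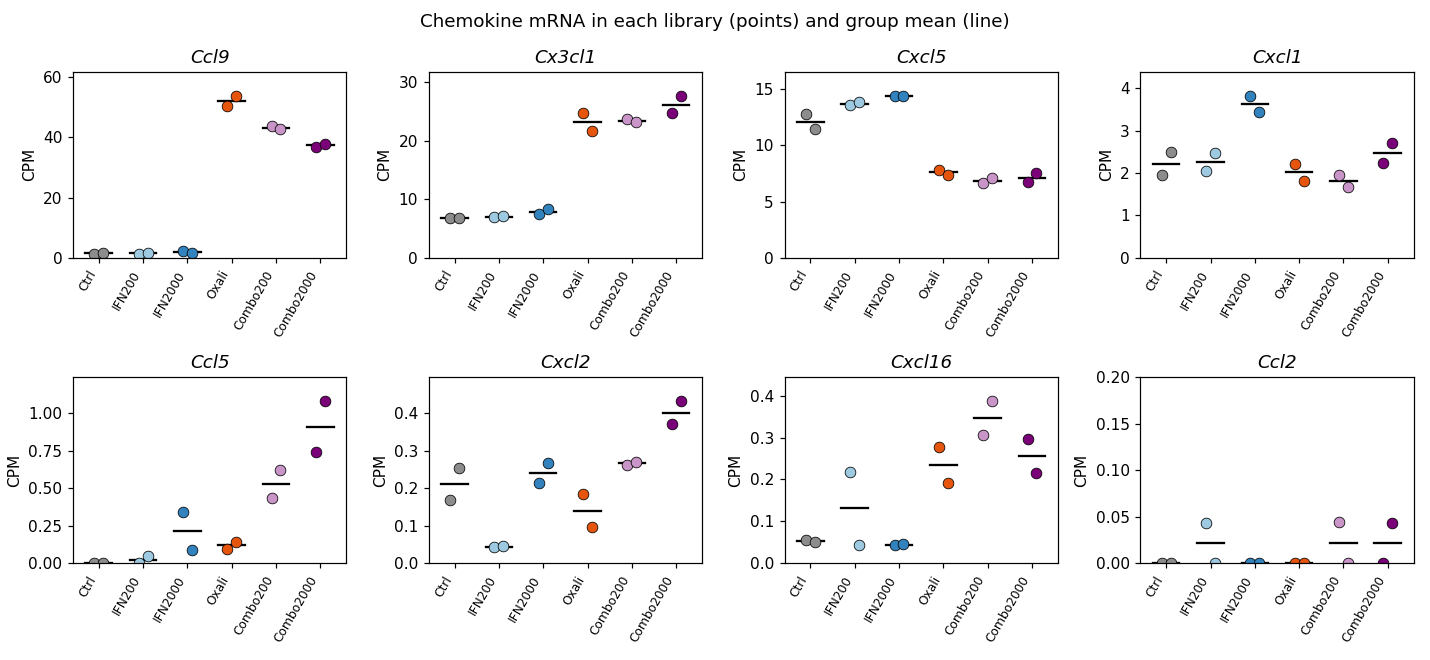
CPM (vertical axis, a scale of its own for each gene) of the 8 chemokines that had any count, in the 6 treatment groups (horizontal axis). Points are the 2 libraries of a group and lines their mean; *Ccl9* and *Cx3cl1* are high and *Cxcl5* is low in all 6 libraries with Oxali, while *Ccl2* never exceeds 1 count in a library.

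*Cx3cl1* (chr8:94772009-94782427), which encodes the membrane-tethered ligand of CX3CR1, was the other chemokine of this set that rose with the drug from a clear baseline. Its Ctrl libraries had 121 and 133 counts, and IFNγ alone gave 160 and 160 at the lower dose and 175 and 185 at the higher. Oxali alone gave 537 and 455 counts, Combo200 544 and 599, and Combo2000 668 and 641. The libraries with and without drug did not overlap. Its mean level was 6.74 ± 0.0058 CPM in Ctrl, 23.2 ± 2.14 CPM in Oxali and 26.2 ± 2.04 CPM in Combo2000.

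Oxali added to IFNγ raised *Cx3cl1* by 1.74 log2 units at the lower dose (3.34-fold, SE 0.093, adjusted p = 2.30e-12) and by 1.73 at the higher dose (3.32-fold, SE 0.089, adjusted p = 1.02e-12). With no IFNγ the difference was 1.79 (description only, since it comes from the contrast behind the list). The 3 values lay within 0.06 log2 units of one another, and the interaction terms were -0.05 (SE 0.15, adjusted p = 0.95) and -0.06 (SE 0.14, adjusted p = 0.896). IFNγ itself gave *Cx3cl1* 0.22 log2 units at the higher dose without drug (SE 0.12, adjusted p = 0.229) and 0.17 with it (SE 0.074, adjusted p = 0.281).

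*Cxcl5* (chr5:90759360-90761624), a neutrophil attractant, moved the other way. It was the highest of the 10 per exon length in Ctrl, where its libraries had 230 and 226 counts. IFNγ alone gave 313 and 313 counts at the lower dose and 336 and 322 at the higher. Oxali alone gave 170 and 155, Combo200 153 and 183, and Combo2000 181 and 175. Every library with Oxali lay below every library without it.

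Oxali lowered *Cxcl5* by 0.99 log2 units when added to the lower IFNγ dose (a log2 change of -0.99, SE 0.095, adjusted p = 1.44e-08) and by 1.02 when added to the higher dose (-1.02, SE 0.093, adjusted p = 6.25e-09), which leaves 0.502 and 0.494 of the level with IFNγ alone. Without IFNγ the difference was -0.67. The interaction terms of -0.33 (SE 0.14, adjusted p = 0.436) and -0.35 (SE 0.14, adjusted p = 0.195) did not pass. IFN2000 lay 0.25 log2 units above Ctrl (SE 0.089, adjusted p = 0.0606), which passed with RLE scaling (adjusted p = 0.0495) and with upper-quartile scaling (adjusted p = 0.0430).

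*Cxcl1* (chr5:90891241-90893115), which shares the receptor CXCR2 with *Cxcl5*, was low and had its highest values with the higher IFNγ dose alone. Ctrl libraries had 35 and 49 counts, IFN200 libraries 47 and 56, and IFN2000 libraries 89 and 77. With the drug, Oxali libraries had 48 and 38, Combo200 libraries 45 and 43, and Combo2000 libraries 60 and 63. The 2 libraries of IFN2000 were higher in CPM than the other 10. *Cxcl1* rose by 0.70 log2 units in IFN2000 over Ctrl (1.63-fold, SE 0.20, adjusted p = 0.0191) and by 0.68 over IFN200 (SE 0.19, adjusted p = 0.0138).

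The higher IFNγ dose left *Cxcl1* lower when Oxali was present than when it was not: Combo2000 against IFN2000 was -0.56 (SE 0.18, adjusted p = 0.00963), and Combo200 against IFN200 was -0.32 (SE 0.21, adjusted p = 0.188). The interaction at 2000 pg was -0.42 (SE 0.29, adjusted p = 0.507). Each of these calls was lost in 3 alternatives, some of which also leave a group with 1 library. Against Ctrl the adjusted p became 0.133 without IFN2000 replicate 2, the library with T cell transcripts, and 0.188 without Ctrl replicate 1. Against IFN200 it became 0.107 without IFN2000 replicate 2 and 0.141 without IFN200 replicate 1, and Combo2000 against IFN2000 had 0.0591 without IFN2000 replicate 2, 0.113 without Combo2000 replicate 2 and 0.130 in DESeq2.

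*Cxcl2*, the neighbor of *Cxcl1*, had too few counts to test. Ctrl libraries had 3 and 5, IFN200 libraries 1 and 1, IFN2000 libraries 5 and 6, Oxali libraries 4 and 2, Combo200 libraries 6 and 7, and Combo2000 libraries 10 and 10. The highest values were those of Combo2000. Relative to IFN200 the ratio was 6.08 in Combo200 (exact 95% counting interval 1.38 to 55.5) and 5.49 in IFN2000 (1.20 to 51.0). *Cxcl16*, whose protein is tethered like CX3CL1, had 1 and 1, 5 and 1, and 1 and 1 counts in the groups without drug in the same order, and 6 and 4, 7 and 10, and 8 and 5 with drug. Its ratio of Combo2000 to IFN2000 was 5.93 (1.34 to 54.1).

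*Ccl5* (chr11:83525778-83530518), which draws T cells as well as monocytes, was highest when the drug and IFNγ were given together. Ctrl libraries had 0 and 0 counts, IFN200 libraries 0 and 1, IFN2000 libraries 8 and 2, and Oxali libraries 2 and 3. Combo200 libraries had 10 and 16 counts, and Combo2000 libraries 20 and 25. Both combinations lay above all other libraries. The mean in Combo2000 was 0.909 ± 0.238 CPM, so that *Ccl5* remained among the lowest genes that could be tested, at percentile 2.1 of mean level.

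With 26 counts in Combo200 against 1 in IFN200, the *Ccl5* ratio was 24.3 (exact 95% counting interval 4.0 to 998), and the test gave an adjusted p of 0.000284. *Ccl5* entered the test through the combinations, where it is high, so its calls in contrasts with them support nothing. With no filter on low counts its adjusted p was 2.14e-06 for Combo200 against IFN200. It was then 0.000211 for Combo2000 against IFN2000 and 4.84e-05 for Combo2000 against Oxali. These were the lowest values among the 19 alternatives, so the fit without a filter is no stricter check. Combo2000 against IFN2000 gave 2.01 log2 units (4.04-fold, SE 0.49, adjusted p = 0.00114), and Combo2000 against Oxali had a ratio of 7.65 (3.05 to 24.7) with an adjusted p of 0.00385. Combo200 against Oxali had a ratio of 4.55 (1.72 to 15.2) and did not pass (adjusted p = 0.135). In DESeq2 the adjusted p was 0.0629 for Combo2000 against IFN2000 and 0.172 for Combo2000 against Oxali. The latter also failed without Oxali replicate 1 (0.126), without Oxali replicate 2 (0.0744) and without Combo2000 replicate 3 (0.102).

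IFN2000 against Ctrl was called for *Ccl5* (group mean at least 1.35-fold higher, adjusted p = 0.0309, bound set by 3 counts per Ctrl library). Replicate 3 of IFN2000, with 2 counts (0.0893 CPM), lay under the level of 3 counts in Ctrl (0.167 and 0.152 CPM). Of the 10 *Ccl5* counts in IFN2000, 8 came from replicate 2, which also had 175 counts of *Gzmb*, 117 of *Ifng*, 64 of *Ptprc*, 190 of *Ccl3* and 194 of *Ccl4*, all genes of activated T cells, with *Cd8a* at 0. Without it the adjusted p was 0.291. The adjusted p was 0.163 and 0.151 when Ctrl replicate 1 or 2 was left out, and 0.0501 and 0.0511 when Combo200 replicate 2 or 3 was. Combo200 replicate 3 had 7 counts of *Gzmb* and 9 of *Ifng*. Their part in the *Ccl5* values of these libraries was not tested. In both Combo2000 libraries, where *Ccl5* was highest, *Cd3e*, *Cd3d*, *Cd3g*, *Cd2*, *Cd8a*, *Gzmb* and *Ifng* were at 0. In the same libraries *Cd5* had 1 and 3 counts and *Ptprc* had 1 and 2. *Lck*, the T cell kinase, had 24 to 40 counts in the libraries with Oxali against 3 to 13 in those without it other than IFN2000 replicate 2, and its part was not tested.

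**Figure D2:**
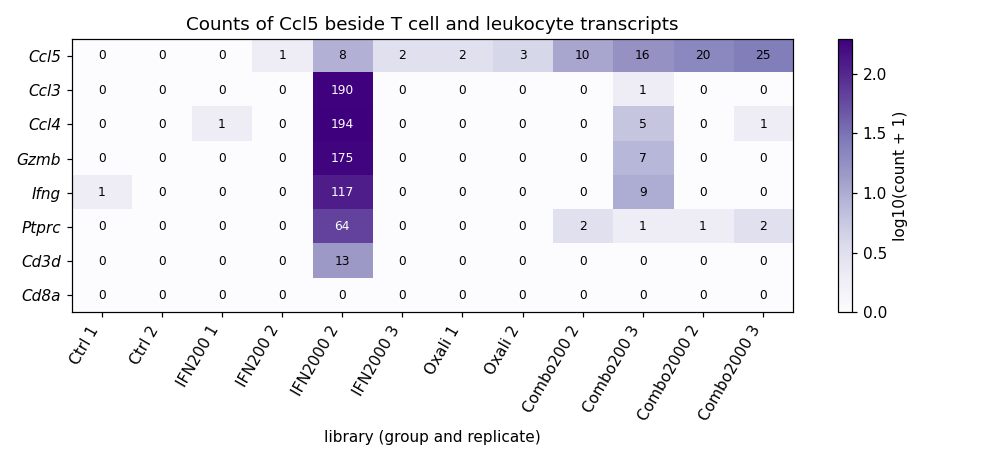
Counts of *Ccl5* and of genes of activated T cells and leukocytes (rows) in each of the 12 libraries (columns); the shade is log10(count + 1). IFN2000 replicate 2 carries all of the T cell genes shown except *Cd8a*. *Ccl5* is highest in Combo2000, at 20 and 25 counts, with *Gzmb* and *Ifng* at 0 and *Ptprc* at 1 and 2. *Lck* and *Cd5* are not shown.

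Counted over the list, Oxali added to the lower IFNγ dose raised 3 members (*Ccl9*, *Cx3cl1* and *Ccl5*) and lowered 1 (*Cxcl5*), where 36.5% and 33.5% of all genes tested were called higher and lower. At the higher dose 3 rose and 2 fell, against 38.5% and 33.8% of all genes. *Ccl5* had entered the test through the combinations, so its place among the raised members supports nothing, and without it 2 members rose at each dose. With so broad a response the counts do not set the chemokines apart. By size of change, *Ccl9* lay at percentiles 99.7 and 99.5 of the log2 fold changes of all genes tested, *Cx3cl1* at 94.8 and 94.3, and *Cxcl5* at 4.3 in both.

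IFNγ alone called few members. At the lower dose none of the 4 members tested was called by edgeR, none at an unadjusted p under 0.05 and none by DESeq2, where 0.114% of all genes were called. IFN2000 against Ctrl called *Ccl5* and *Cxcl1* higher (8.39% of all genes), and IFN2000 against IFN200 called *Cxcl1* (11.3%). With drug present, Combo2000 against Oxali called *Ccl5* (3.37% of all genes), which DESeq2 did not call. Since *Ccl5* had entered the test through the combinations, that call supports nothing. Combo200 against Oxali called none of 4 in edgeR or DESeq2, with 1 at an unadjusted p under 0.05 (1.83% of all genes). Combo2000 against Combo200 called none of 5 in either tool, with 3 at an unadjusted p under 0.05 (1.37% of all genes). The interactions at 200 and 2000 pg called none of 4 in either tool, with *Cxcl5* at an unadjusted p under 0.05 in each (0.698% and 2.72% of all genes).

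**Figure D3:**
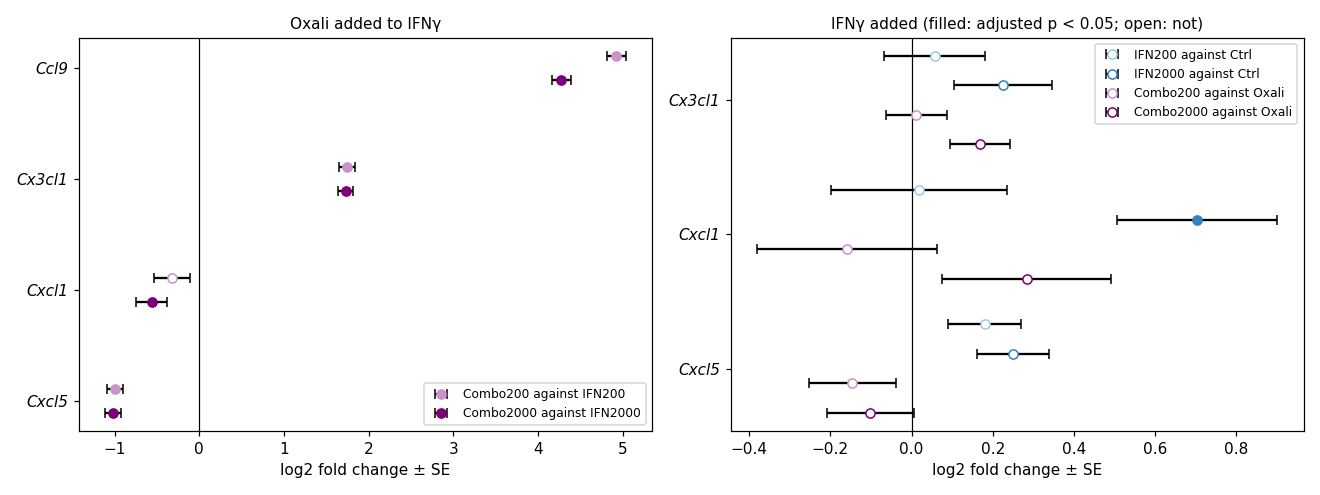
Log2 fold changes with SE (horizontal axis) of the chemokines with enough counts, for Oxali added to IFNγ (left) and IFNγ added without or with Oxali (right). Filled points have an adjusted p under 0.05 and open points do not; the drug moves *Ccl9* by over 4 log2 units, and of the 3 genes on the right, which leave out *Ccl5*, *Cxcl1* has the one filled point, in IFN2000 against Ctrl.

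The make-up of the set therefore changed with the drug. Per kilobase of exon, the order in Ctrl was *Cxcl5* (6.51 ± 0.510 CPM per kb), *Cx3cl1* (1.71 ± 0.0015), *Cxcl1* (1.18 ± 0.202) and *Ccl9* (0.502 ± 0.0900), with no overlap between neighbors. In Oxali it was *Ccl9* (17.1 ± 0.742 CPM per kb), *Cx3cl1* (5.91 ± 0.544), *Cxcl5* (4.09 ± 0.165) and *Cxcl1* (1.07 ± 0.150), again without overlap. The summed level of the 10 genes was 9.89 to 12.8 CPM per kb in the 6 libraries without Oxali and 24.2 to 28.5 in the 6 with it. *Ccl9* made up 3.61% to 5.72% of that sum without the drug and 47.0% to 62.2% with it, and *Cxcl5* 60.1% to 68.4% and 13.9% to 15.4%. *Ccl9* was chosen on its counts in Ctrl and Oxali, so its rank and share in those groups are description only.

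**Figure D4:**
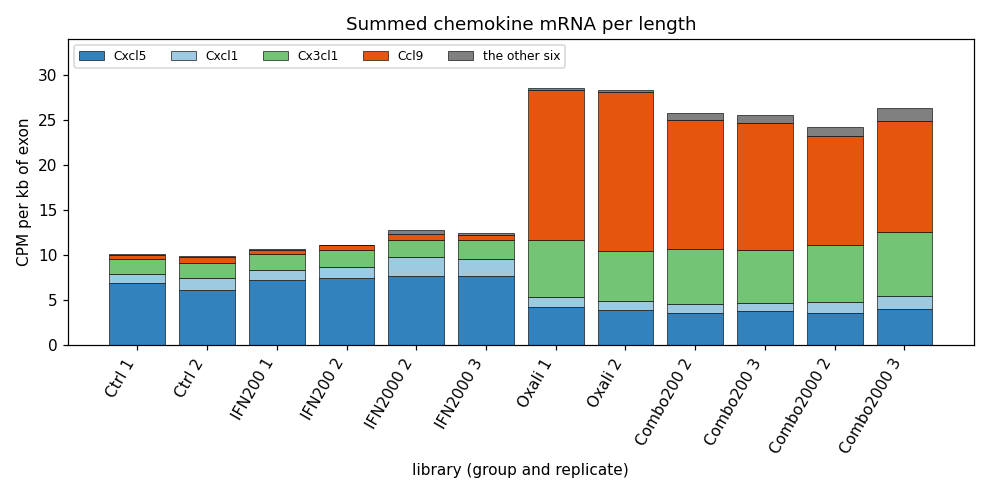
Stacked level of the 10 chemokines in CPM per kilobase of exon (vertical axis) in each library (horizontal axis). *Cxcl5* fills most of each bar without Oxali, and *Ccl9* is the largest block in all 6 libraries with it.

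The genes whose pattern over the 12 libraries was most like that of *Ccl9* were sought among the 328 genes whose log2 CPM averaged 1 or more and spanned 2 or more. They were *Scnn1g* (r = 0.998), *Stab1* (0.997), *Kifc3* (0.996), *Neurl1a* (0.996) and *Edn1* (0.995). *Scnn1g*, a subunit of the epithelial sodium channel, went from 21.9 ± 1.26 CPM in Ctrl to 84.8 ± 1.73 in Oxali, and *Edn1*, the endothelin 1 precursor, from 14.6 ± 0.0096 to 59.0 ± 3.49. Within the set, *Ccl9* and *Cx3cl1* had r = 0.99 and *Ccl9* and *Cxcl5* had r = -0.96. The 12 points of each r form 2 clusters, with and without drug, and share their libraries, so these values only describe likeness.

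*Ccl9* lies at chr11:83572919-83578636 on the minus strand (GRCm38), in the CC chemokine cluster, whose other genes were nearly silent. Of the 10 annotated genes within 100 kb, *Ccl5* and *Taf15* passed the filter. *Ccl6*, a related CC chemokine 9246 bases away, had 8 counts in all, 7 of them in libraries with Oxali. *Ccl3* and *Ccl4* had 191 and 201 counts, of which 190 and 194 were in IFN2000 replicate 2. The transcript E230016K23Rik, which begins 3420 bases upstream of *Ccl9* on the opposite strand, had 7 counts, all in libraries with Oxali. Whether reads were assigned by strand is not stated.

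Other chemokines were examined as a list of 25 that leaves out the set above and the CXCR3 ligands. Of these, 8 passed the filter and 8 had no count at all. Oxali raised 3 of the 8 when added to the lower IFNγ dose, close to the 36.5% of all genes called higher, and 5 when added to the higher, where 38.5% were, with median log2 changes of 0.33 and 0.34 against 0.02 and 0.03 for all genes. None was lower in edgeR, at an unadjusted p under 0.05 or in DESeq2, which called 2 higher in each. *Cxcl15* (lungkine), a neutrophil attractant of epithelia, rose by 0.45 log2 units (SE 0.0925, adjusted p = 0.000223) and 0.25 (SE 0.092, adjusted p = 0.0204), from 17.1 ± 0.215 CPM in IFN200 to 23.4 ± 0.113 in Combo200. The second value was lost without IFN2000 replicate 3 (0.398), without Combo2000 replicate 3 (0.189) and in DESeq2 (0.118). *Ppbp*, the precursor of a platelet chemokine that binds CXCR2, was called at the higher dose alone (0.43, SE 0.16, adjusted p = 0.0198), and that call was lost in DESeq2 (0.184) and without IFN2000 replicate 2 (0.0589) or 3 (0.0780) or Combo2000 replicate 3 (0.149). The remaining calls were *Ccl17* and *Ccl27a* at both doses and *Cxcl17* at the higher, genes with a mean under 1 log2 CPM that are named because the count is small.

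Receptors for these ligands were almost silent. Of 14 receptor genes, *Ackr3*, a scavenger of CXCL12, alone passed the filter. It rose by 0.39 log2 units with Oxali at the lower IFNγ dose (SE 0.053, adjusted p = 1.58e-06) and by 0.13 at the higher (SE 0.051, adjusted p = 0.0321), the latter lost in 12 of 19 alternatives, among them DESeq2 (0.221) and the fit without IFN2000 replicate 2 (0.157). *Ccr1* and *Ccr2*, the receptors of CCL9 and CCL2, had counts in IFN2000 replicate 2 alone.

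Among 5 proteases that shed or trim chemokines, *Adam10* and *Adam17*, both known to release CX3CL1 from the membrane, passed the filter and moved apart. *Adam10* rose by 0.83 log2 units with Oxali at the lower IFNγ dose (SE 0.040, adjusted p = 4.82e-13) and by 1.01 at the higher (SE 0.040, adjusted p = 2.33e-14), from 400 ± 12.6 to 713 ± 9.72 CPM at the lower dose. *Adam17* changed by -0.53 (SE 0.038, adjusted p = 1.98e-10) and -0.41 (SE 0.038, adjusted p = 7.84e-09), from 174 ± 3.23 to 120 ± 1.38 CPM.

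Of 8 growth factors for myeloid cells, 7 passed the filter. Oxali raised 5 and lowered 2 at the lower IFNγ dose and raised 4 and lowered 2 at the higher. *Csf3*, raised at both doses, had means of 0.129 (Ctrl), 0.307 (IFN200) and 0.346 CPM (IFN2000) without Oxali. With it the means were 1.18 (Oxali), 1.11 (Combo200) and 0.879 CPM (Combo2000). *Csf3* passed the filter through the libraries with Oxali, so its place in these counts and in the list medians supports nothing. Of all genes, 36.5% and 38.5% were called higher and 33.5% and 33.8% lower. The list had median log2 changes of 0.63 and 0.44 against 0.02 and 0.03 for all genes. *Csf1*, the macrophage growth factor, rose by 2.91 log2 units (SE 0.053, adjusted p = 6.05e-19) and 2.54 (SE 0.050, adjusted p = 1.21e-18). Its mean level was 16.2 ± 0.545 CPM in Ctrl and reached 17.8 ± 0.163 CPM with the lower and 26.7 ± 1.68 CPM with the higher IFNγ dose alone. With the drug it was 89.2 ± 4.31 CPM (Oxali), 134 ± 2.50 CPM (Combo200) and 156 ± 1.56 CPM (Combo2000), with no overlap between the groups. *Il34*, the second ligand of the CSF1 receptor, rose by 1.87 (SE 0.085, adjusted p = 2.04e-13) and 1.78 (SE 0.085, adjusted p = 3.45e-13), and *Kitl*, the ligand of KIT, by 0.21 (SE 0.042, adjusted p = 0.000153) and 0.44 (SE 0.042, adjusted p = 1.49e-08).

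*Vegfa* and *Mif* fell. *Vegfa*, which draws monocytes besides driving vessel growth, changed by -0.90 (SE 0.063, adjusted p = 1.24e-10) and -1.09 (SE 0.060, adjusted p = 2.69e-12), and *Mif*, a macrophage cytokine, by -0.46 (SE 0.050, adjusted p = 9.87e-08) and -0.74 (SE 0.050, adjusted p = 6.40e-11). IFNγ acted on this list without the drug as well: in IFN2000 against Ctrl, *Csf1* (0.72, adjusted p = 8.43e-07), *Vegfa* (0.31, adjusted p = 0.00106) and *Mif* (0.26, adjusted p = 0.00124) rose and *Kitl* (-0.30, adjusted p = 0.000128) fell, where 8.39% and 8.47% of all genes were called higher and lower. *Flt3l* and *Csf3*, with means under 1 log2 CPM, made up the rest of the calls with Oxali.

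**Figure D5:**
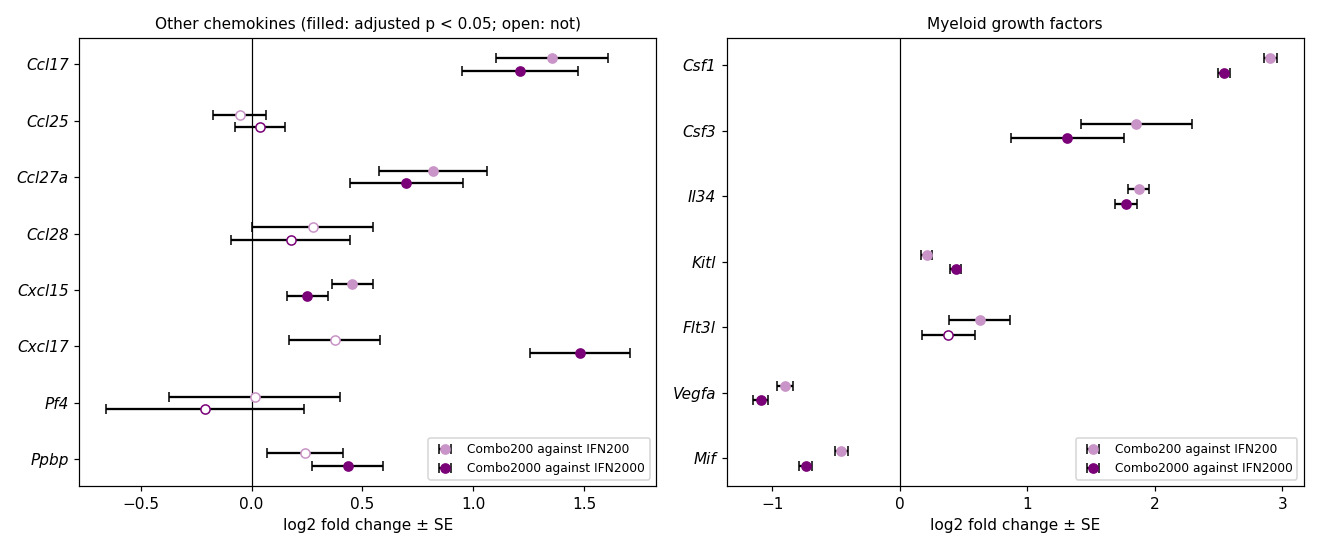
Log2 fold changes with SE (horizontal axis) for Oxali added to the lower or higher IFNγ dose, for the other chemokines (left) and the myeloid growth factors (right) that passed the filter. Filled points have an adjusted p under 0.05; *Csf1* and *Il34* show the largest rises with small errors, and *Vegfa* and *Mif* lie below 0.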

How the data were processed

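RNA-seq of 12 Myc-CaP libraries was analyzed. The deposited values are unscaled counts of reads for each gene symbol, made by the authors. By the study's methods, reads were aligned to GRCm38 with STAR and counted with featureCounts; the submitters' processing notes name STAR 2.7.3a and RSEM 1.3.0, so which program made the counts is not settled. Use of strand and of reads with several matches is not stated, so reads shared by related chemokines may be split or lost. Positions and exon lengths came from a GENCODE release on GRCm38 (53559 symbols matched).

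Counts were scaled by TMM, filtered with filterByExpr (minimum count 10, minimum total 15; 13177 genes kept) and tested in edgeR 4.0.16 (R 4.3.3) by quasi-likelihood over all 12 libraries, with a mean per group. Calls needed a Benjamini-Hochberg adjusted p under 0.05 over all 13177 genes. SE is the log2 change over the square root of F. An exact permutation test of 2 libraries against 2 cannot go below p = 0.333. An interaction is (Combo minus Oxali) minus (IFNγ minus Ctrl).

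Members and lists were chosen with earlier results of these data known. *Ccl9* was therefore tested only in the 4 contrasts without Ctrl or Oxali libraries, and Oxali against Ctrl was tested for no member. Genes named from the lists had an adjusted p under 0.05 and a mean of at least 1 log2 CPM; likeness was Pearson's r on log2 CPM with prior count 2. Low counts are given as ratios with exact 95% intervals, or as bounds at 3 counts per library; both cover counting error only. The code was tested on simulated data. Alternatives were RLE and upper-quartile scaling, no filter, DESeq2 1.42.0, only the groups compared, a replicate block, removal of the exon length trend, and each library left out. Promoters are from RefSeq (5 of 10 genes matched). Comparisons that share Ctrl or Oxali libraries are not independent.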

Additional observations from a re-analysis of the deposited data

Results flagged for a closer look

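Of these chemokines, *Cxcl2* differed in opposite directions with the lower IFNγ dose, by whether the drug was present. Both IFN200 libraries (1 and 1 counts) lay below both Ctrl libraries (3 and 5), and both Combo200 libraries (6 and 7) lay above both Oxali libraries (4 and 2). The IFNγ effect with Oxali minus that without was 0.293 CPM. The difference was not tested in the fit, where *Cxcl2* did not pass the filter; in the fit with no filter the interaction was 3.04 log2 units with an adjusted p of 0.456.

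For 3 genes of the accompanying lists the IFNγ effect differed with the drug by the interaction test. For *Csf1* at 200 pg the interaction was 0.45 log2 units (SE 0.086, adjusted p = 0.0140), which lost its call in 7 of 19 alternatives (adjusted p 0.000307 to 0.261). For *Adam10* at 2000 pg it was 0.23 (SE 0.057, adjusted p = 0.0361), which lost its call in 14 of 19 alternatives (adjusted p 0.000498 to 0.250), RLE (0.0533) and upper-quartile scaling (0.0608) among them. For *Vegfa* at 2000 pg it was -0.35 (SE 0.089, adjusted p = 0.0389), which lost its call in 9 of 19 alternatives (adjusted p 0.00616 to 0.174).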

How the results depend on the processing

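*Ccl9*, *Cx3cl1*, *Cxcl5* and *Csf1* kept their calls with Oxali added at both IFNγ doses under all 19 alternatives. The number of members called changed in other comparisons. In DESeq2 it was 3 for Combo2000 against IFN2000 (5 in edgeR) and 0 for Combo2000 against Oxali (1 in edgeR); for IFN2000 against Ctrl and against IFN200 DESeq2 gave no adjusted p for the members called. With only the groups compared it was 1 for IFN2000 against Ctrl (2 in the fit of all groups) and 1 for Combo2000 against Combo200 (0), and with no filter it was 2 for IFN2000 against IFN200 (1). Leaving out 1 library at a time, it ran from 0 to 2 for IFN2000 against Ctrl, from 0 to 2 for IFN2000 against IFN200 and from 0 to 1 for Combo2000 against Oxali; a group left with 1 library is assumed to vary like the others. The cause was not tested, beyond the smaller number of libraries in such fits.

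Replicate numbers in the titles do not pair the libraries: deviations of same-numbered libraries correlated at -0.239 to 0.105. With the replicate block the members called were 0 for IFN2000 against Ctrl, 0 for IFN2000 against IFN200 and 0 for Combo2000 against Oxali, and the block changed no other count by over 1.5 times. Of 2709 values of single genes under an alternative, 87 lost a call and 5 gained one. Another 4 (all of *Ccl9*, where it was not tested) moved by more than the SE of the main fit. None changed direction past the threshold. Depth limits *Ccl2*, *Cxcl2*, *Cxcl16* and *Ccl5* most, and *Ccl7* and *Ccl20* were not detectable at this depth.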
